A study of Drosophila melanogaster with 21 samples.

Results

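Male flies can lose dosage compensation of the X in more than 1 way, and here a mutant without the non-coding RNAs of the compensating complex was set directly against a mutant without one of its proteins. The comparison took the 3 libraries of roX1 roX2 double mutants and the 4 libraries of msl-2 mutants, chosen by their labels alone, which are 7 of the 21 libraries of the series. All libraries hold poly-A RNA from male Drosophila melanogaster, reared at 25 °C, whose wing discs, the precursors of the adult wings, were dissected late in larval life. The question is which genes and chromosomes differ between males that lack roX RNA but keep intact genes for the MSL proteins and males that lack the protein MSL2.

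The roX1 roX2 larvae carried the alleles roX1.SMC17A and roX2delta, are labelled double null, and came from a stock provided by another laboratory. The msl-2 larvae are labelled null for msl-2, carried the allele named in the titles msl2_227, and came from a Bloomington stock. Heterozygous msl-2 males of that same stock, with the balancer CyOGFP in their titles (3 libraries), were used below as context without a test, as were the mle stock (allele written mle9, 3 null mutant and 2 heterozygous libraries with CyOGFP) and the msl-1.L60 stock (3 null mutant and 3 heterozygous libraries). No heterozygous or wild-type library of the roX1 roX2 stock is among the labels, so a difference between the mutants can belong to the mutations or to any other difference between the stocks, and these cannot be told apart. Nothing in the labels says that replicates came from separate larvae or cultures, so p-values measure the spread between these libraries, which may be technical.

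The MSL complex consists of the proteins MSL1, MSL2, MSL3, MLE and MOF together with the long non-coding RNAs roX1 and roX2. MSL2 is made in males, where it assembles with MSL1 and directs the complex to the single X, and MOF then acetylates histone H4 at lysine 16 over transcribed X genes. The roX RNAs are X-linked, are remodelled by the RNA helicase MLE, and are needed for the complex to spread along the X, while in their absence MSL proteins are known to reach heterochromatic sites outside the X.

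Total counts were 4131600, 1972761 and 1979734 in roX1 roX2 replicates 2, 3 and 4, and 2633480, 2461896, 2458046 and 2763656 in msl-2 replicates 1 to 4. Correlations of log2 levels ran from 0.941 to 0.976 between libraries of 1 group and from 0.924 to 0.952 between the groups. Wing disc markers were present in every library: vg, a selector gene of the wing, stood at 121, 143 and 179 CPM in roX1 roX2 libraries and at 146, 194, 170 and 191 CPM in msl-2 libraries. CPM here are read counts scaled to the library size by autosomal genes. In each group 1 library stood apart in RNA of another tissue. In roX1 roX2 replicate 2 the 10 gut markers, digestive proteases among them, summed to 7241 CPM, against 6.37 to 15.9 CPM in the other 6 libraries. In msl-2 replicate 2 the 11 fat body markers, among them the larval storage protein Lsp2, summed to 5558 CPM, against 395 to 448 CPM in the other msl-2 libraries and 131 to 139 CPM in roX1 roX2 libraries. Counts of genes are therefore also given without both of these libraries. In whole discs, fewer cells of a type and less RNA per cell cannot be told apart.

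Both roX RNAs were low or absent in the roX1 roX2 libraries. roX1 (X, 3857230 to 3862697, dm6) stood at 37.1, 44.0 and 72.8 CPM in the roX1 roX2 libraries and at 1629, 1985, 1669 and 1767 CPM in the msl-2 libraries. It was lower in roX1 roX2 mutants, by a log2 fold change of -5.11 ± 0.26 (SE; adjusted p 4.03e-08 by edgeR). roX1 overlaps the gene ec in the annotation, and the origin of the remaining reads was not tested. In heterozygous msl-2 males roX1 stood at 2653 ± 79.0 CPM (SD, n = 3), above all 4 msl-2 mutant libraries. Its mean was 105 CPM in mle mutants and 132 CPM in msl-1.L60 mutants, so low roX1 RNA was not particular to the roX1 roX2 mutants.

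roX2 (X, 11579065 to 11580432) had no read in any roX1 roX2 library and only 1.54, 3.42, 3.88 and 1.83 CPM in the msl-2 libraries, too few to enter the test. Set against a floor of 3 counts over the 3 libraries, which covers counting error only, the msl-2 level was at least 6.94-fold higher. Heterozygous msl-2 males held 291 ± 27.4 CPM of roX2 (SD, n = 3). Means of roX2 were 2.30 CPM in mle mutants and 0.465 CPM in msl-1.L60 mutants. Low roX RNA therefore does not by itself check the roX1 roX2 label. The msl-2 mutants thus held much roX1 and little roX2 RNA.

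None of the 5 protein genes of the complex passed the test, and with roX1 the list had 1 of 6 tested members lower and 0 higher, beside 2.32% of all genes tested (206 of 8891) called in either direction. msl-2 (2L, 3462218 to 3466112), the subunit that limits the complex to males, stood at 83.4, 94.4 and 71.8 CPM in roX1 roX2 libraries and at 54.0, 52.6, 63.7 and 51.5 CPM in msl-2 libraries. Its groups did not overlap, but the log2 difference of 0.58 ± 0.15 (SE) had an adjusted p of 0.0706 by edgeR, and 3 alternative fits put it at 0.0198 to 0.0349. The msl-2 mutants thus still held msl-2 RNA, against 102 ± 7.32 CPM in heterozygous msl-2 males (SD, n = 3), so its level does not by itself check the null label. msl-1, the scaffold that binds MSL2, had 81.4, 70.6 and 84.1 CPM in roX1 roX2 libraries and 105, 87.6, 92.4 and 99.7 CPM in msl-2 libraries (log2 difference -0.29 ± 0.14, adjusted p 0.423). The log2 differences of msl-3 (-0.34), mof (-0.23) and mle (0.07) were of similar or smaller size, and their adjusted p values were 0.474, 0.617 and 0.897.

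**Figure D1:**
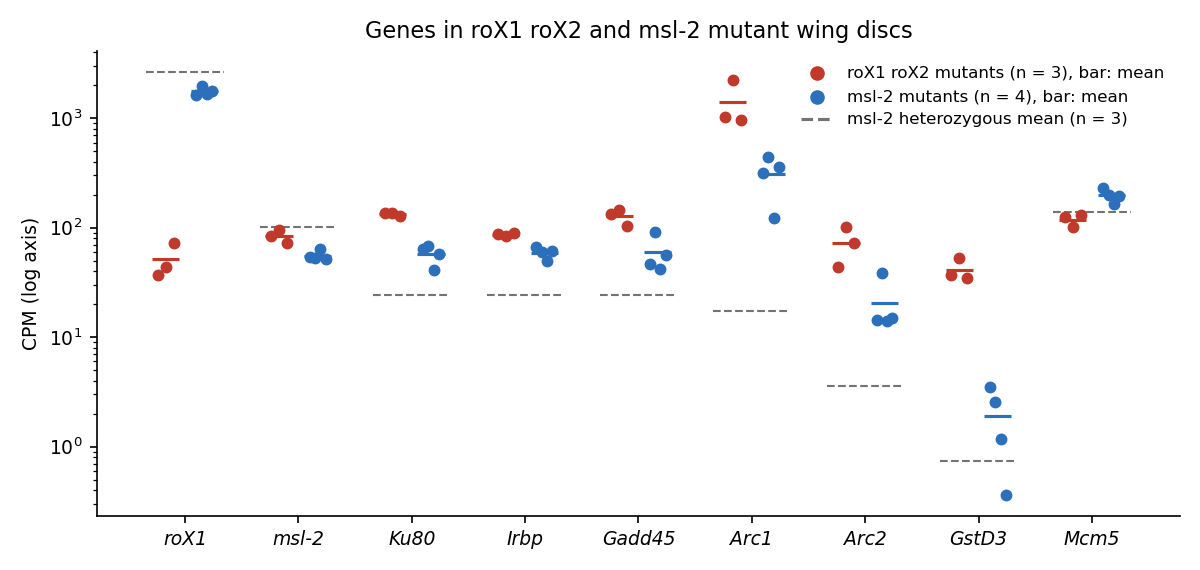
CPM on a log axis for 9 genes, 1 point for each roX1 roX2 library (red, n = 3) and msl-2 library (blue, n = 4), with a bar at the group mean and a dashed line at the mean of 3 heterozygous msl-2 libraries. roX1 is lower and Ku80 and GstD3 are higher in every roX1 roX2 library than in any msl-2 library. The genes msl-2, Irbp, Arc1 and Arc2 did not pass the test.

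The X lay slightly lower in roX1 roX2 mutants than in msl-2 mutants, and both lay below heterozygous msl-2 and mle males. The measure was the median log2 level over 1373 X-linked genes less the median over 7222 genes of 2L, 2R, 3L and 3R, after each gene was centred on the mean of the 2 groups. It was -0.101, 0.00336 and -0.0325 in the roX1 roX2 libraries and 0.0720, 0.0384, 0.0231 and 0.0159 in the msl-2 libraries. The groups did not overlap, and their difference of -0.0806 puts the X of roX1 roX2 mutants at 94.6% of its level in msl-2 mutants. An exact two-sided permutation test gave p = 0.0286, the smallest that 3 against 4 libraries allow. With other groups scaled alongside, heterozygous msl-2 libraries stood at 0.343 to 0.411 and heterozygous mle libraries at 0.421 to 0.429. Heterozygous msl-1 libraries were lower and spread widely, at 0.189, -0.302 and 0.149, where the value below all 7 mutant libraries is that of replicate 2, the library of lowest total count (830905). On this scale mle mutant libraries stood at -0.182 to -0.158 and msl-1.L60 mutant libraries at -0.262 to -0.220. These lay below every roX1 roX2 and msl-2 mutant library, so a lower X than in msl-2 mutants was not particular to the roX1 roX2 mutants.

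The X difference was seen in moderately and strongly expressed genes. Of the X genes tested, 60.7% had a log2 difference below 0, beside 49.6% of autosomal genes. In the lowest, middle and highest class of expression the X minus autosome difference was 0.0357, -0.140 and -0.0801. When weakly expressed genes were let in with a filter of 1 CPM in 3 libraries the value was -0.0361 (exact permutation p = 0.343), without any filter it was -0.0263 (p = 0.371), and as a mean over genes -0.0670 (p = 0.171). Along the X, 22 bins of 1 Mb held 20 tested genes or more, and the median was negative in 17 of them. The bins ran from -0.272 between 15 and 16 Mb to 0.105 between 5 and 6 Mb.

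For chromosome 4 and the heterochromatin near centromeres, where roX RNAs are known to act, the median level did not differ beyond the spread between libraries. The chromosome 4 value of 80 genes was -0.311, 0.0549 and 0.166 in roX1 roX2 libraries and -0.00103, 0.0351, 0.141 and -0.0234 in msl-2 libraries (difference -0.0679, exact permutation p = 0.8). The lowest of these was roX1 roX2 replicate 2, and without it the difference was 0.0570. For 117 pericentric genes against 7105 other autosomal genes the difference was 0.0601 (exact permutation p = 0.6), with roX1 roX2 libraries at -0.0929, 0.176 and -0.0421 and msl-2 libraries at -0.0650, -0.0271, -0.0760 and -0.0179. The single high library was roX1 roX2 replicate 3, and without it the difference was -0.0241. No gene of chromosome 4 was called. Single pericentric genes did change, in both directions: 5 were higher and 4 lower, which is 7.69% of 117, beside 2.32% of all genes tested. None of the 20 tested genes of a list of autosomal heterochromatin genes passed, and their median log2 difference was 0.0715, beside -0.00965 over all genes tested.

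**Figure D2:**
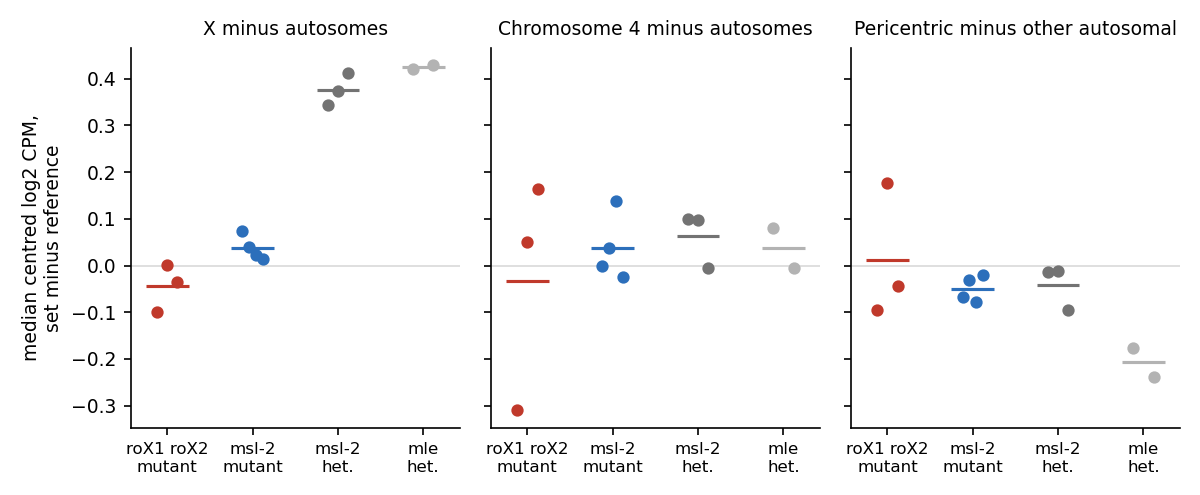
For each library (points; bars are group means), the median centred log2 CPM of X genes, chromosome 4 genes and pericentric genes minus that of the reference genes, on 1 scale. On the X both mutants, between -0.0990 and 0.0745, lie apart from the heterozygous msl-2 and mle libraries at 0.343 and above. Heterozygous msl-1 libraries and the mle and msl-1 mutants are not drawn. In the other panels the roX1 roX2 libraries spread across the msl-2 libraries.

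Across the genome 206 of 8891 genes tested differed at an adjusted p under 0.05 in edgeR, 119 (1.34%) higher and 87 (0.979%) lower in roX1 roX2 mutants. Of the 206, 151 exceeded 2-fold, and the median log2 fold change of called genes was 1.61 for higher and -1.67 for lower genes. The smallest called values were 0.564 and -0.609, so these sizes depend on what the test could call. In all but 1 of the 206 the libraries of the groups did not overlap, beside 12.6% of all genes tested (6.15% with every roX1 roX2 library higher and 6.48% with every one lower). The 206 were selected by a test on these same libraries, so their lack of overlap adds no separate support. The X held 23 higher and 23 lower genes (3.35% of 1373), near the 3.23% of 2R (35 higher, 22 lower of 1765) and above the 2.43% of 2L, 1.49% of 3L and 1.59% of 3R. Without both replicates 2 the count was 212 (144 higher, 68 lower), of which 144 were among the 206. Leaving out roX1 roX2 replicate 3 lowered the count to 114, and leaving out msl-2 replicate 4 to 137.

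**Figure D3:**
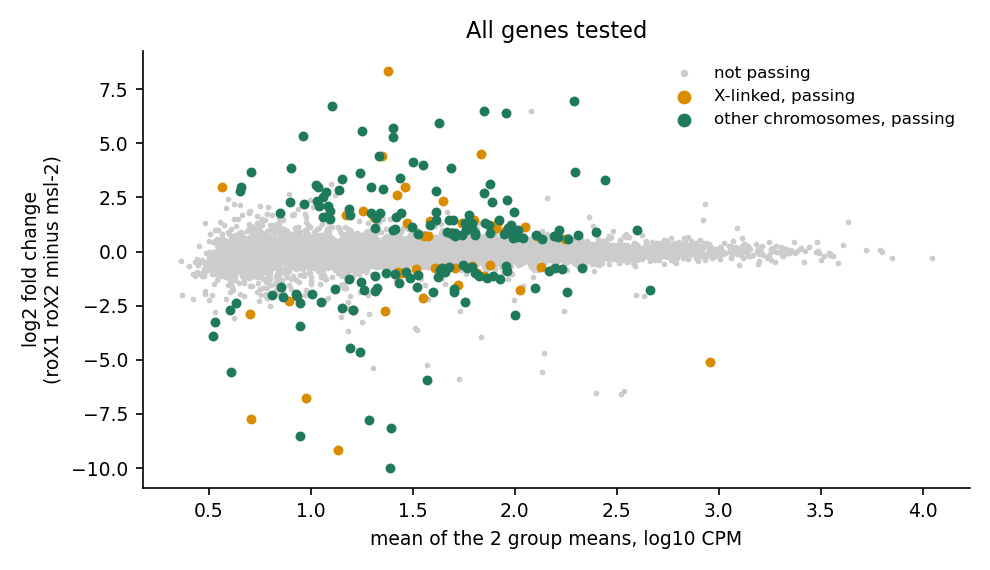
Log2 fold change of roX1 roX2 over msl-2 mutants against mean expression (log10 CPM) for the 8891 genes tested, with called X genes in orange and other called genes in green. The 23 higher and 23 lower X genes lie within the same range as the called genes of other chromosomes, and roX1 is the called gene of highest expression.

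A channel subunit and a cytochrome P450 were among the 6 autosomal genes with the highest log2 fold changes. ppk13 (2L, 21086790 to 21088751), a pickpocket sodium channel subunit by family, stood at 130, 188 and 218 CPM in roX1 roX2 libraries and at 1.54, 3.42, 1.94 and 1.46 CPM in msl-2 libraries, a log2 fold change of 6.40 ± 0.27 (adjusted p 1.12e-08 by edgeR). CG33509, next to it on 2L, rose by 6.51 ± 0.59. High levels of these neighbours were not particular to roX1 roX2 mutants. In msl-1.L60 mutants ppk13 averaged 328 CPM and CG33509 242 CPM, beside 179 and 140 CPM in roX1 roX2 mutants. In mle mutants they averaged 0.863 and 1.35 CPM. CG31601, a pericentric gene of 2L, was at 182, 547 and 434 CPM against 1.93, 4.70, 4.66 and 1.10 CPM, the highest autosomal log2 fold change at 6.97 ± 0.56. Cyp6a17, a cytochrome P450, averaged 25.4 ± 4.73 CPM (SD, n = 3) in roX1 roX2 libraries and rested on 2 reads in all msl-2 libraries together, a ratio of 129 with a 95% counting interval of 35.3 to 1073. CR44316 (2R) and CG43120 (3L) completed the rule for these 6 genes, with log2 fold changes of 5.95 ± 0.86 and 5.72 ± 0.62. The call of CR44316 was lost in several fits that left out 1 library, with adjusted p values up to 0.102. CG31601, Cyp6a17 and CR44316 averaged under 5 CPM in msl-1.L60 mutants, while CG43120 was high there, as described below.

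Among X genes, Reepl1 rose most and is described with the roX2 locus below. OtopLa (X, 5625676 to 5648487), of the otopetrin family of proton channels, stood at 55.1, 165 and 175 CPM in roX1 roX2 libraries and at 4.25, 6.84, 6.99 and 5.11 CPM in msl-2 libraries (log2 fold change 4.48 ± 0.45). Erk7, an atypical MAP kinase, averaged 42.6 ± 19.1 CPM (SD, n = 3) against 1.95 ± 1.07 CPM (SD, n = 4). CG5273 held 50.4, 52.5 and 51.5 CPM against 4.25, 3.85, 13.2 and 4.75 CPM, so that the roX1 roX2 libraries lay close together and msl-2 replicate 3 stood above the other msl-2 libraries. The pseudogene CR6900, at 6.56 ± 2.49 against 0.767 ± 0.416 CPM, overlaps CG6961 and lost its call in some fits, with adjusted p values of 0.0534 to 0.0960.

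The lowest genes included several with no read at all in roX1 roX2 mutants. sordd2 (X, 15796908 to 15799162) had 0 reads in the 3 roX1 roX2 libraries and 27.4, 29.5, 24.1 and 28.1 CPM in the msl-2 libraries, at least 71.7-fold higher in the latter by the floor of 3 counts over the group. In the fit of all 13 mutant libraries its adjusted p was 0.0529 by edgeR. The pseudogene CR44383, next to sordd2, was likewise at 0 and at least 26.7-fold lower. On 3R the overlapping pseudogenes CR45548 and CR31054 held 0 and 1 read in all roX1 roX2 libraries against 508 reads each in the msl-2 libraries, and on 3L CG32318 held 0 against 180 reads. CR40190, a pericentric pseudogene of 2R, had 1 read against a mean of 38.3 CPM. Reads of pseudogenes and of overlapping genes can be shared with other genes, so these levels are uncertain.

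Other genes stood near 0 in roX1 roX2 libraries. sut2 (2R, 8087396 to 8089297), a sugar transporter, stood at 1.00, 1.59 and 0.990 CPM in roX1 roX2 libraries and at 59.4, 69.6, 86.6 and 77.4 CPM in msl-2 libraries (log2 fold change -5.94 ± 0.29, adjusted p 3.06e-08 by edgeR). dntRL, a pericentric non-coding RNA gene of 2R, was at 0.752, 2.12 and 1.48 CPM against 27.0, 29.9, 29.9 and 32.1 CPM. CG31683, which overlaps CG31688, held 1 read against 83. Vha36-3 (X, 2579091 to 2580560), a copy of a subunit of the vacuolar proton pump, had 9 reads against 90 and a log2 fold change of -2.89 ± 0.61. Its call was lost without roX1 roX2 replicate 2 (adjusted p 0.0740) or replicate 3 (adjusted p 0.109). Low levels of these genes were not particular to the roX1 roX2 mutants. In mle and msl-1.L60 mutants the means were 4.07 and 1.80 CPM for sut2 and 4.95 and 6.75 CPM for dntRL. For CG31683 they were 0.395 and 0.264 CPM, and for Vha36-3 0.324 and 0.622 CPM.

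Levels in heterozygous msl-2 males, which share the stock of the msl-2 mutants but have a working copy of msl-2, sided with the msl-2 mutants for most called genes. On a log2(CPM + 0.5) scale the heterozygous msl-2 mean was nearer to the msl-2 mutants than to the roX1 roX2 mutants for 172 of 206 called genes (83.5%) and for 54.6% of 8685 genes that were not called. Heterozygous mle males, from another stock, were nearer to the msl-2 mutants for 109 of 206 (52.9%), beside 50.2% of genes not called. By direction this was 62.2% of the 119 higher and 40.2% of the 87 lower genes, while for heterozygous msl-2 males it was 87.4% and 78.2%. sut2 shows the pattern, with 44.2 ± 7.30 CPM in heterozygous msl-2 males (SD, n = 3) and a mean of 2.59 CPM in heterozygous mle males. GstD3 shows it in the other direction, at 0.746 ± 0.116 CPM in heterozygous msl-2 males and 22.3 CPM in heterozygous mle males. Called genes were selected for a difference between these mutants and the genes not called were not, so their shares are not like for like. This measure of nearness was chosen after the levels had been seen, and no test was made of it.

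Of the called genes, 19 had a mean under 1 CPM in 1 mutant and at least 5 CPM in the other. Heterozygous msl-2 males were nearer to the msl-2 mutants in 19 of 19, and heterozygous mle males in 11 of 19. These genes are part of the count above and add no separate support to it. Of the 10 that were present in msl-2 mutants, 7 had at least 5 CPM in heterozygous msl-2 males. Of the 9 that were present in roX1 roX2 mutants, all had under 5 CPM there and 5 had under 1 CPM. CR45548, CR31054 and CG32318 had no read in any mle or msl-1.L60 library, mutant or heterozygous, and sordd2 and CR44383 had none in any msl-1.L60 library. sordd2 was also at 0 in at least 1 mle mutant library, while the heterozygous mle libraries averaged 40.7 CPM. CG43120 was near 1 CPM in both msl-2 groups and in heterozygous mle males, but at 65.3 CPM in mle mutants and 70.9 CPM in msl-1 mutants, beside 49.6 CPM in roX1 roX2 mutants. CR41440 likewise averaged 15.1, 12.9 and 11.6 CPM in roX1 roX2, mle and msl-1 mutants. It averaged 0.964 CPM in msl-2 mutants, 0.603 CPM in heterozygous msl-2 males and 0.787 CPM in heterozygous mle males. Heterozygous msl-1 libraries spread widely, from 2.15 to 37.3 CPM for CG43120 and from 1.07 to 8.61 CPM for CR41440.

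**Figure D4:**
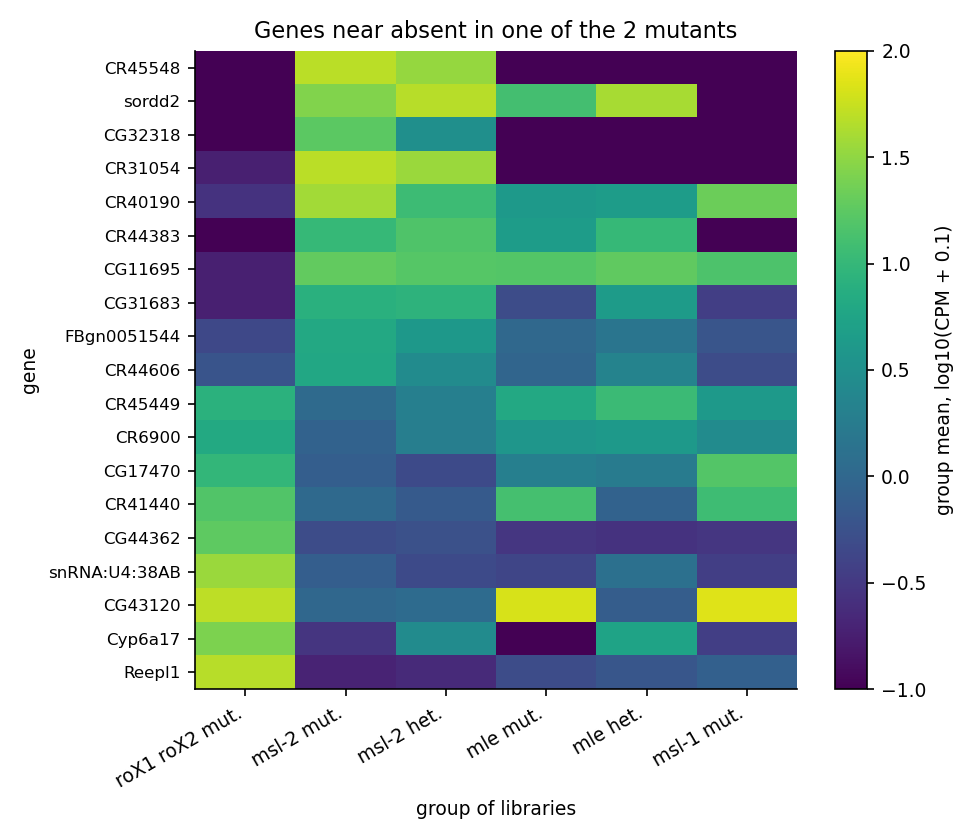
Group means, as log10(CPM + 0.1), of the 19 called genes near absent in 1 of the 2 mutants, with genes in rows and 6 groups of libraries in columns. The msl-2 heterozygous level is nearer to the msl-2 than to the roX1 roX2 mutant level in all 19 genes. CG43120 and CR41440 are higher in the roX1 roX2, mle and msl-1 mutants than in the other groups drawn. Heterozygous msl-1 libraries are not drawn. The gene shown by its FlyBase ID has no symbol in the annotation used.

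Genes beside the deleted roX2 changed in both directions. Of 19 genes tested within 50 kb of roX2, 3 were higher and 1 lower in roX1 roX2 mutants (21.1%), beside 1.34% higher and 0.979% lower over all genes tested. The window size was chosen after the values were seen. CG11695, which lies 259 bases from roX2, stood at 0.251, 0 and 0 CPM in roX1 roX2 libraries and at 20.1, 18.8, 21.8 and 14.6 CPM in msl-2 libraries. That is 1 read against 192, a ratio of 148 with a 95% counting interval of 26.2 to 5875. Reepl1, 5425 bases from roX2 and named for the REEP family of endoplasmic reticulum proteins, ran the other way, at 45.6, 43.5 and 54.4 CPM against 0.386, 0, 0 and 0 CPM, or 374 reads against 1.

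Kmn1, a kinetochore protein gene next to Reepl1, stood at 61.1, 81.2 and 79.7 CPM in roX1 roX2 libraries and at 17, 13.2, 12 and 16.1 CPM in msl-2 libraries (log2 fold change 2.33 ± 0.19). Its means in msl-2 and mle heterozygotes and in mle and msl-1.L60 mutants were 12.0 to 23.4 CPM. Polr2A, the largest subunit of RNA polymerase II, lay 8739 bases away and rose by 0.58 ± 0.14 (adjusted p 0.0489 by edgeR). Between Polr2A and Kmn1, CG11699, which overlaps Kmn1, had a log2 difference of 0.55 ± 0.16 without overlap of the groups (adjusted p 0.118). There asRNA:CR44266 had 0.32 ± 0.19 (adjusted p 0.542), and neither gene passed. Genes between Reepl1 and CG11695 did not pass either: CG11696, 2913 bases from roX2, had a log2 difference of -0.08 ± 0.16, and e(y)2, 2445 bases from it, had -0.15 ± 0.22. On the other side of roX2, nod, a kinesin-like protein gene 340 bases away, had -0.55 ± 0.18 (adjusted p 0.147). The strand setting of the counting is not given, so reads shared between these close neighbours are uncertain.

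Of 13 genes tested within 50 kb of msl-2, 1 was lower and 0 higher (7.69%), beside 2.32% of all genes tested. ND-PDSW, a subunit of respiratory complex I that starts 45 bases beyond msl-2, stood at 149, 142 and 85.1 CPM in roX1 roX2 libraries and at 218, 206, 228 and 220 CPM in msl-2 libraries (log2 fold change -0.79 ± 0.18, adjusted p 0.0339 by edgeR). Heterozygous msl-2 males held 204 ± 2.19 CPM (SD, n = 3). Means were 144 CPM in heterozygous mle males, 106 CPM in mle mutants and 150 CPM in msl-1.L60 mutants, all below the msl-2 libraries. The call was lost in most fits that left out 1 library, with adjusted p values of 0.0581 to 0.0823. It was the only called gene among 57 tested genes of the respiratory chain, whose median log2 difference was 0.103. None of the 3 genes tested within 50 kb of roX1 was called.

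**Figure D5:**
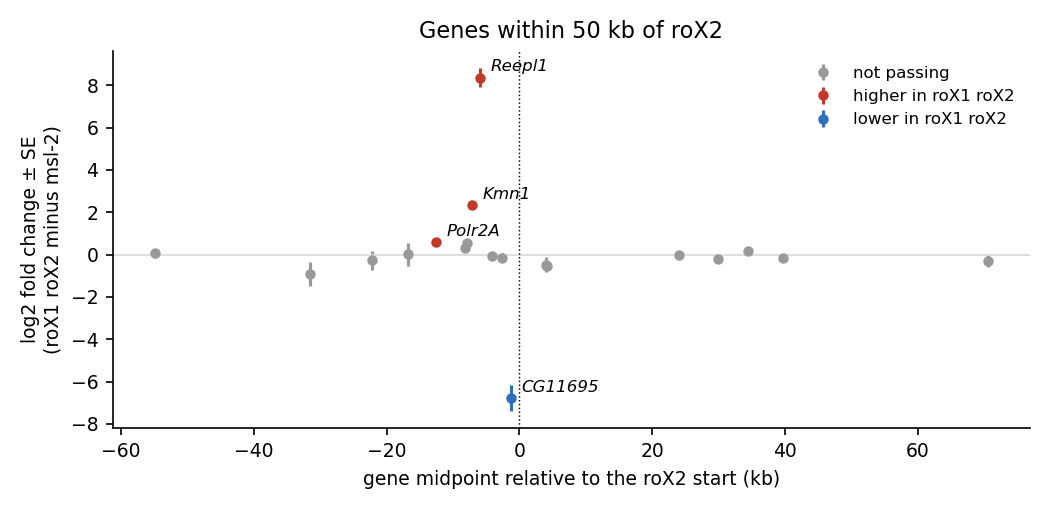
Log2 fold change ± SE of roX1 roX2 over msl-2 mutants for the 19 genes tested that reach within 50 kb of roX2, plotted at the distance in kb of each gene's midpoint from the roX2 start. Reepl1, Kmn1 and Polr2A are higher and CG11695 is lower, all on 1 side of roX2.

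Of the genes that respond to tissue damage, Ku80 and Gadd45 passed the test, both higher in roX1 roX2 discs. In the list of DNA damage response genes 1 of 17 tested was higher and 0 lower, with a median log2 difference of 0.0528. Ku80 (2L, 15768630 to 15771159), which binds DNA ends for non-homologous end joining, was at 137, 137 and 128 CPM in roX1 roX2 libraries and at 63.7, 67.5, 40.8 and 56.9 CPM in msl-2 libraries. Its log2 fold change of 1.23 ± 0.17 had an adjusted p of 0.000701 by edgeR, and heterozygous msl-2 males held 24.2 ± 3.18 CPM (SD, n = 3), below both mutants. Ku80 averaged 79.8 CPM in mle mutants and 153 CPM in msl-1.L60 mutants. A level above that of msl-2 mutants was thus not particular to the roX1 roX2 mutants. Irbp, which encodes its partner Ku70, stood at 86.9, 83.3 and 89.1 CPM against 66.4, 59.4, 50.1 and 61.3 CPM without overlap of the groups, but did not pass (0.54 ± 0.15, adjusted p 0.0783). The genes of the MRN complex, which also binds broken ends, did not pass either, with mre11 at 0.44 ± 0.16 and rad50 at 0.34 ± 0.15.

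In the list of JNK signalling and regeneration genes 1 of 24 tested was higher and 0 lower, and the median log2 difference was 0.392. Gadd45 (2R, 7249161 to 7250655), a stress-induced activator of JNK signalling, stood at 133, 144 and 103 CPM in roX1 roX2 libraries and at 46.7, 92.3, 42.3 and 56.2 CPM in msl-2 libraries (log2 fold change 1.10 ± 0.24, adjusted p 0.0351 by edgeR). msl-2 replicate 2 came closest to the roX1 roX2 libraries. Gadd45 averaged 144 CPM in mle mutants and 207 CPM in msl-1.L60 mutants, so its higher level was not particular to the roX1 roX2 mutants either. The call was lost in 6 of the 7 fits that left out 1 library, with adjusted p values of 0.0764 to 0.191. msn, a kinase upstream of JNK, was at 113, 215 and 180 CPM against 72.9, 102, 111 and 81.8 CPM (adjusted p 0.0562). Ilp8, the relaxin-like hormone by which damaged discs delay metamorphosis, was at 6.76, 35 and 8.41 CPM against 3.86, 2.99, 3.11 and 5.48 CPM (adjusted p 0.0889), its mean drawn by roX1 roX2 replicate 3. Xrp1, a stress transcription factor of discs, had a log2 difference of 0.49 ± 0.19 and an adjusted p of 0.268.

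Arc1 and Arc2, which encode capsid proteins derived from retrotransposons, had large differences that did not pass. Arc1 stood at 1031, 2244 and 972 CPM in roX1 roX2 libraries and at 314, 445, 122 and 356 CPM in msl-2 libraries, while heterozygous msl-2 males averaged 17.3 CPM. Every roX1 roX2 library was above every msl-2 library, but the spread within groups was wide, and the log2 difference of 2.19 ± 0.50 had an adjusted p of 0.101. Arc2 was at 43.6, 102 and 73.3 CPM against 14.3, 38.5, 14 and 15 CPM, with 1.83 ± 0.44 and an adjusted p of 0.101. None of 12 tested genes of apoptosis passed, and their median log2 difference was -0.00584.

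Detoxification gave 1 higher gene of 21 tested. GstD3, of the delta class of glutathione transferases, was at 36.8, 53 and 34.6 CPM in roX1 roX2 libraries and at 3.47, 2.56, 1.17 and 0.365 CPM in msl-2 libraries (log2 fold change 4.44 ± 0.41, adjusted p 2.13e-05 by edgeR). Its mean was 40.3 CPM in mle mutants and 103 CPM in msl-1.L60 mutants, so a high level was not particular to the roX1 roX2 mutants. Close paralogs surround GstD3, so its count is uncertain. The median of the list was 0.233. GstE11 came next at 0.69 ± 0.17 with an adjusted p of 0.0560.

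Of 26 tested genes of the cell cycle and DNA replication 1 was lower and 0 higher in roX1 roX2 discs. Their median log2 difference was -0.247, with 19 of 26 below 0. Mcm5 (3R, 10788524 to 10791150), a subunit of the replicative helicase, stood at 124, 101 and 131 CPM in roX1 roX2 libraries and at 232, 200, 166 and 194 CPM in msl-2 libraries (log2 fold change -0.74 ± 0.16, adjusted p 0.0244 by edgeR). Heterozygous msl-2 males held 139 ± 21.6 CPM (SD, n = 3), nearer to the roX1 roX2 mutants. The call was lost without msl-2 replicate 1, 2 or 4 or roX1 roX2 replicate 3, with adjusted p values of 0.0547 to 0.174. dap, an inhibitor of cyclin E kinase, at -0.70 ± 0.18, and CycD, a G1 cyclin, at -0.66 ± 0.17, did not pass (adjusted p 0.0555 and 0.0648). Mcm6, another helicase subunit, had -0.55 ± 0.19.

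None of 12 tested genes of glycolysis passed, and their median log2 difference was 0.386, with 3 of 12 below 0. Pgk, phosphoglycerate kinase, was at 696, 673 and 736 CPM in roX1 roX2 libraries and at 530, 522, 523 and 534 CPM in msl-2 libraries, groups that did not overlap (0.41 ± 0.14, adjusted p 0.179). Heterozygous msl-2 males averaged 656 CPM of Pgk. Ribosomal and proteasomal genes gave no call: the medians were 0.156 over 76 cytoplasmic ribosomal protein genes, 0.119 over 70 mitochondrial ones and 0.0669 over 34 proteasome genes.

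The patterning genes of the wing disc gave no call in 41 tested, with a median log2 difference of -0.00182. ci, the transcription factor of Hedgehog signalling, was at 321, 310 and 304 CPM in roX1 roX2 libraries and at 448, 470, 369 and 502 CPM in msl-2 libraries, without overlap (-0.52 ± 0.15), but did not pass. tkv, a receptor for the morphogen Dpp, was at 217, 187 and 220 CPM against 300, 255, 294 and 295 CPM (-0.46 ± 0.14, adjusted p 0.135). Transcription factors of the ecdysone response gave 0 calls in 14 (median -0.0372), ecdysone-inducible effectors 0 in 11 (median 0.215) and leg and haltere genes 0 in 11 (median -0.279). Partners of dosage compensation in chromatin gave 0 calls in 15. Clamp, the zinc finger protein that recruits the complex to the X, stood at 210, 216 and 212 CPM against 246, 208, 204 and 222 CPM.

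Heat shock genes also gave no call in 13, with a median of -0.538 that rested on wide spreads: Hsp70Ab ranged from 1.06 to 48.9 CPM in roX1 roX2 libraries and from 1.55 to 176 CPM in msl-2 libraries. The highest of these was msl-2 replicate 2, the library with the fat body markers, and near-identical Hsp70 copies make the split of their reads uncertain. Immunity gave 0 calls in 5.

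Markers of other tissues gave 2 calls. sls, the giant titin-like muscle protein, was at 156, 186 and 284 CPM in roX1 roX2 libraries and at 705, 1186, 504 and 468 CPM in msl-2 libraries (log2 fold change -1.78 ± 0.37, adjusted p 0.0497 by edgeR), and it overlaps an antisense gene. The call did not survive scaling on all genes (adjusted p 0.0562) or 4 of the 7 fits that left out 1 library (0.0904 to 0.235). It was alone among 17 tested larval muscle genes, whose median log2 difference was 0.336, and summed larval muscle markers overlapped between the groups, at 2133 to 3217 CPM and 1935 to 3331 CPM. uif, an epidermal growth factor repeat protein of trachea and other epithelia, rose, from 209, 173, 183 and 138 CPM in msl-2 libraries to 307, 284 and 391 CPM in roX1 roX2 libraries (0.90 ± 0.17, adjusted p 0.00951 by edgeR). The call was lost in the fit of all 21 libraries (adjusted p 0.112). It was 1 of 5 tested tracheal markers, and it overlaps CR44326. Fat body markers gave 0 calls in 9 with a median of -3.65, hemocyte markers 0 in 9 with -0.0522, and adult muscle precursor markers 0 in 10 with 0.0632. The part of tissue composition in these results was not tested.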

How the data were processed

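The authors deposited unnormalised read counts, with genes by FlyBase ID and a column for each of 21 libraries. Alignment and counting tools listed in the submitters' processing notes are STAR (2.6.1b) and featureCounts (Subread 1.6.1), on dm6/BDGP6. The labels give a TruSeq Stranded mRNA kit, and the strand setting of the counting is not given in the sources used here. Of 17558 genes, 306 (5.46% of counts in the 7 libraries) had no match in the reference annotation of dm6 and were left out of analyses by chromosome.

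Tests used edgeR 4.0.16 in R 4.3.3 on the counts of the 7 libraries: filterByExpr, TMM on genes of 2L, 2R, 3L and 3R, robust quasi-likelihood fits of the 2 groups, and Benjamini-Hochberg adjustment over 8891 genes, called under 0.05. Errors of log2 fold changes are the fold change over the root of F. Chromosome values used log2 CPM with a prior count of 2 and exact permutation over libraries. Alternatives were DESeq2 1.42.0, other scaling, filters and sets of libraries, a replicate block and leaving out each library. Scripts were tested on simulated counts.

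Named genes were the MSL complex, the 5 X-linked and 6 autosomal called genes with the highest and with the lowest log2 fold change (at least 5 CPM in the higher group, no overlap), up to 4 called members per list, and up to 3 called genes each of chromosome 4 and pericentric regions. Other named genes (the roX2 neighbours, and list members that did not pass) were chosen after their values were seen. The comparison, the lists and the rules were chosen with earlier results of these data known. Total counts of 1972761 to 4131600 limit weakly expressed genes.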

Additional observations from a re-analysis of the deposited data

Results flagged for a closer look

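In 50 sets of values from the 4 msl-2 libraries, 7 had 1 library far from the other 3. For independent and normally distributed values this would be about 1 of 20 sets. The sets share the same libraries and most are CPM of single genes, so the 7 cannot be weighed against that rate. A set with 1 read in 1 library and none in the others, as for Reepl1, is always flagged. In msl-2 replicate 2 fat body markers summed to 5558 CPM (others 395 to 448). In msl-2 replicate 3 gut markers summed to 15.9 CPM (others 10.7 to 11.3), Y-linked genes summed to 37.3 CPM (others 14.1 to 15.3), and CG5273 was at 13.2 CPM (others 3.85 to 4.75). In msl-2 replicate 1 CR40190 was at 29.7 CPM (others 40.5 to 42.3) and Reepl1 at 0.386 CPM, which is 1 read, with no read in the others. In msl-2 replicate 4 mof was at 48.2 CPM (others 53.7 to 54.0). Groups of 3 libraries were too small for this check.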

How the results depend on the processing

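The count of 206 called genes was 207 with TMM on all genes, 246 and 211 with other filters, and 299 with all 13 mutant libraries. DESeq2 called 322 (186 higher, 136 lower), all 206 among them. The fit of all 21 libraries called 179 (53 lower), and without msl-1 heterozygous replicate 2 it called 372 (220 higher, 152 lower). Leaving out 1 library gave 114 to 236 calls, 68 to 146 higher and 46 to 90 lower. No gene called in both fits changed direction. The replicate numbers did not pair the libraries (correlations of same-numbered libraries -0.0801, -0.0136 and -0.303). A replicate block gave 153 calls, and CG33509 and CR6900, among others, lost their calls under it (adjusted p 0.0541 and 0.0960). With this block the X difference was -0.0691 (exact permutation p = 0.250, within same-numbered pairs). So few pairs allow no smaller exact permutation p, so this value cannot show whether the X difference holds under the block. The X difference lost its call as a mean over genes (-0.0670), with the 1 CPM filter (-0.0361) and with no filter (-0.0263). Leaving out 1 library it was -0.106 to -0.0538, and without both replicates 2 (chosen after seeing the data) it was -0.0565, in designs that cannot reach 0.05. The chromosome 4 difference turned positive with no filter (0.0186), without roX1 roX2 replicate 2 (0.0570) and without both replicates 2 (0.0522), and ran from -0.159 to 0.0570. The pericentric difference ran from -0.0241 (without roX1 roX2 replicate 3) to 0.115. The causes were not tested. Of 35 named genes tested, 24 kept their side of the threshold in every alternative, 10 lost the call in some, msl-2 gained it, and none reversed.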

Other observations

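Called genes were spread over the genome with a few local groups: of 136 windows of 1 Mb that held tested genes, 89 had a call and 7 had at least 5. Between 18 and 19 Mb of the X all 6 called genes were higher in roX1 roX2 mutants, of 61 tested. Between 6 and 7 Mb of the X all 5 called genes were lower, of 84 tested, among them the ubiquitin gene Ubi-p5E and the translation factor gene MCTS1. On 3L between 9 and 10 Mb all 5 called genes were lower, and on 2R between 12 and 13 Mb all 5 were higher. Over all genes tested, 2.32% were called in either direction. In the other windows with at least 5 calls the directions were mixed. Between 22 and 23 Mb, 3 genes were higher and 5 lower on 2R, and 3 higher and 3 lower on 3R. Between 15 and 16 Mb of the X, 2 were higher and 4 lower. These windows were chosen after the values were seen and were not tested. By class, 6 of 35 tested pseudogenes were called (17.1%), beside 3.21% of 467 non-coding RNA genes and 2.19% of 8185 protein-coding genes.

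The white gene w, on the X and needed for eye pigment, was near its floor in both mutants, at 1.25, 1.59 and 3.96 CPM in roX1 roX2 libraries and 0.386, 0.427, 1.17 and 1.46 CPM in msl-2 libraries. Ecdysone-inducible ImpE2, an apical protein of everting discs, varied within both groups, at 591, 36.1 and 32.2 CPM in roX1 roX2 libraries and 430, 23.1, 158 and 661 CPM in msl-2 libraries, while heterozygous msl-2 males averaged 4662 CPM.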
